A study of Mus musculus with 6 samples.

Results

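The miR-15/16 family, with miR-195 and miR-497, was followed in fresh and vitrified mouse blastocysts with real-time PCR assays from the A and B cards of the TaqMan Array Rodent MicroRNA set. Its members were chosen by name, as every assay named miR-15, miR-16, miR-195 or miR-497 with or without a letter after the number, for any species and on either card, without the assays marked # for the opposite arm of the hairpin. This gave 5 of the 750 miRNA assays, all named for mouse and all on card A, namely mmu-miR-15a, mmu-miR-15b, mmu-miR-16, mmu-miR-195 and mmu-miR-497. Blastocysts of the Kunming mouse, a Chinese outbred stock, gave total RNA in 3 vitrified pools, called V1 to V3, and 3 fresh pools, called F1 to F3. Vitrified blastocysts were held for 30 seconds in 10% ethylene glycol with 10% DMSO and for 25 seconds in the solution EDFS30 inside an open-pulled straw, and then went into liquid nitrogen. They were thawed for 5 minutes in 0.5 M sucrose and washed in CZB medium. The fresh blastocysts were the untreated control. Each value is from a pool of embryos, so the spread between pools is not the spread between single embryos.

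The miRNAs of this family repress mRNAs that match their seed, the bases near the 5′ end that pair with the target. They are known as brakes on the cell cycle and on survival, with the mRNAs of D-type cyclins and of Bcl2 among their best studied targets, and the pair miR-15a and miR-16-1 is lost in many chronic lymphocytic leukaemias. The blastocyst, with its inner cell mass and its outer trophectoderm, is a stage of rapid division. In RNA from whole blastocysts, fewer cells of a type and less RNA per cell cannot be told apart.

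The 5 mature sequences are shown because the family is defined by its seed, and because the bases after the seed are what tell its members apart. They are those of RefSeq on GRCm38.p6, with bases 2 to 8 in capitals.
mmu-miR-15a-5p: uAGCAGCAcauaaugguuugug
mmu-miR-15b-5p: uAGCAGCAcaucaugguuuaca
mmu-miR-16-5p: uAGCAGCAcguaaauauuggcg
mmu-miR-195a-5p: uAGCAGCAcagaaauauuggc
mmu-miR-497a-5p: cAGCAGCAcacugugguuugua
All 5 have the same seed, which is found in 10 of the 1674 different mature mouse sequences of the table. Counted from base 1, mmu-miR-16-5p and mmu-miR-195a-5p had the same base at 19 of 21 positions, the closest pair, and mmu-miR-15a-5p and mmu-miR-15b-5p at 18 of 22. The most distant pair was mmu-miR-16-5p and mmu-miR-497a-5p, with 11 of 22. The assays named mmu-miR-195 and mmu-miR-497 were taken as measuring mmu-miR-195a-5p and mmu-miR-497a-5p, since the deposited values give no probe sequence. How far an assay reads a close relative was not tested.

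The members come from 3 pairs of neighbouring genes. Mir15a (mature sequence at chr14:61632075-61632096, minus strand) and Mir16-1 (chr14:61631936-61631957, minus strand) have 117 bases between their mature sequences and lie within the span of the long noncoding RNA gene Dleu2. Mir15b (chr3:69009775-69009796, plus strand) and Mir16-2 (chr3:69009918-69009939, plus strand) have 121 bases between them and lie within the span of Smc4, a gene for a condensin subunit. Mir497 (chr11:70234730-70234751, plus strand) and Mir195a (chr11:70235062-70235082, plus strand) have 310 bases between them. Mir16-1 and Mir16-2 give the same mature sequence, so the mmu-miR-16 assay reads both genes together.

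Values are threshold cycles (Ct), the cycle of the PCR in which the fluorescence crosses a set line. A lower Ct means more template and 1 cycle is a step of 1 on the log2 scale. V1 and F1 stood apart from the other pools before any comparison was made. On card A, a Ct was determined for 140 of 375 miRNA assays in V1 and 88 in F1, against 212 to 239 in the other 4 pools. U6, the reference small RNA, had its latest card A mean in V1, at 17.82 cycles, against 16.59 to 17.10 in the other 5 pools. The control snoRNA202 was at 17.79 to 18.22 cycles in the pools numbered 2 and 3, but at 25.90 in V1 and 27.47 in F1. For this reason the members' levels and their log2 differences are given with V1 and F1 and without them. What sets these pools apart, and its part in the results, was not tested.

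The family was detected in both groups, with a Ct in 27 of its 30 wells. The 3 undetermined wells were mmu-miR-15a, mmu-miR-15b and mmu-miR-497 in F1. Over all miRNA assays of card A, 1142 of 2250 wells had a Ct. All 5 members had a Ct in each of the 4 pools numbered 2 and 3, which held for 196 of the 375 assays of the card.

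mmu-miR-16, the product of both pairs of miR-15 and miR-16 genes, was the member whose assay had the lowest Ct. Its raw Ct was 24.34 (V1), 20.67 (V2) and 20.85 (V3), and 26.14 (F1), 20.35 (F2) and 20.32 (F3). Only V1 and F1 were late, and the groups overlapped. It had the lowest Ct of all determined miRNA assays of card A in V2, V3 and F2 and came 8th of 229 in F3. In V1 it came 6th of 140, and in F1 it came 11th of 88. With the mean of the 4 U6 wells of the same card and pool subtracted (ΔCt), the values were 4.66 ± 1.63 (SD, n = 3) after vitrification and 5.40 ± 3.18 (SD, n = 3) in fresh pools. Without V1 and F1 they were 3.72 ± 0.22 and 3.56 ± 0.28 (SD, n = 2 each).

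mmu-miR-195, which differs from mmu-miR-16 at few bases and comes from another locus, was next in order. Its raw Ct was 29.51 (V1), 22.34 (V2) and 23.26 (V3), against 29.78 (F1), 22.71 (F2) and 22.16 (F3). V1 and F1 lay close together and at least 6 cycles past the rest, and the groups overlapped. Its ΔCt was 7.74 ± 3.46 (SD, n = 3) after vitrification and 8.01 ± 4.09 (SD, n = 3) in fresh pools, and 5.76 ± 0.74 and 5.67 ± 0.65 without V1 and F1 (SD, n = 2 each). Between 88.5% and 90.6% of the determined assays of card A had a later Ct in the pools numbered 2 and 3.

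mmu-miR-15b, the partner of Mir16-2 within Smc4, had a raw Ct of 31.42 (V1), 25.07 (V2) and 24.98 (V3), and of 24.86 (F2) and 24.79 (F3). The 4 pools numbered 2 and 3 were within less than 1 cycle of each other. F1 was undetermined. The ΔCt was 9.86 ± 3.24 (SD, n = 3) after vitrification and 8.05 ± 0.31 (SD, n = 2) in fresh pools. Without V1 the vitrified value was 7.99 ± 0.036 (SD, n = 2).

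mmu-miR-497, the neighbour of Mir195a, had a raw Ct of 33.65 (V1), 25.21 (V2) and 25.31 (V3), and of 25.63 (F2) and 25.28 (F3). F1 was again undetermined, and V1 was the only late value. The ΔCt was 10.76 ± 4.39 (SD, n = 3) after vitrification and 8.68 ± 0.50 (SD, n = 2) in fresh pools, with 8.22 ± 0.17 (SD, n = 2) for the vitrified pools without V1.

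mmu-miR-15a, the partner of Mir16-1 within Dleu2, was the member whose assay had the highest Ct. Its raw Ct was 37.63 (V1), 28.97 (V2) and 28.23 (V3), and 28.07 (F2) and 29.64 (F3), with F1 undetermined. In the pools numbered 2 and 3 it lay in the middle of the card, where between 34.5% and 47.4% of the determined assays had a later Ct. The ΔCt was 14.31 ± 4.77 (SD, n = 3) after vitrification and 12.08 ± 0.85 (SD, n = 2) in fresh pools. Leaving out V1 gave 11.56 ± 0.43 (SD, n = 2) for the vitrified pools.

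**Figure D1:**
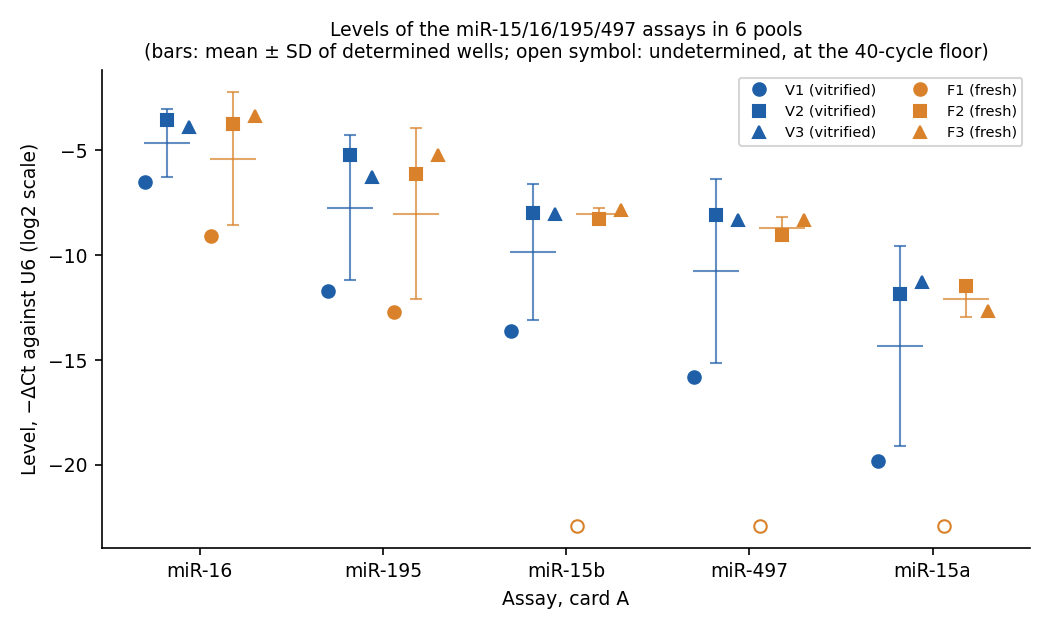
Level of each member as −ΔCt against U6 (log2 scale, vertical axis) in the 3 vitrified pools (blue) and 3 fresh pools (orange), with the mean ± SD of the determined wells per group. V1 and F1 (circles) lie below the other pools for each member, and the open circles mark the 3 undetermined wells of F1, drawn at the floor that 40 cycles set.

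Vitrified and fresh blastocysts were then compared to ask whether vitrification moved the family. Fold changes were differences in mean −ΔCt on the log2 scale, vitrified minus fresh, and limma was fitted to the 335 miRNA assays with at least 2 determined wells per group, undetermined wells left out. Of the 5 members, 0 had an adjusted p-value under 0.05 (limma with Benjamini-Hochberg adjustment) and 0 an unadjusted p-value under 0.05. Over all assays tested the shares called were 0.0% and 0.299%. The log2 difference was above 0 for 2 members and below 0 for 3, beside 48.1% and 51.9% of the assays. Its median was −1.81 over the members and −0.053 over all assays tested. For none of the 5 members did the groups fail to overlap in −ΔCt, against 15.2% of the assays tested.

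The log2 difference was 0.74 for mmu-miR-16 (standard error 1.81, 95% interval −3.63 to 5.11). It was 0.27 for mmu-miR-195 (standard error 2.58, 95% interval −5.96 to 6.51). For the members with F1 dropped as undetermined, it was −1.81 for mmu-miR-15b (standard error 2.04, 95% interval −6.96 to 3.34), −2.08 for mmu-miR-497 (standard error 2.64, 95% interval −8.73 to 4.58) and −2.23 for mmu-miR-15a (standard error 2.85, 95% interval −9.43 to 4.96). All 5 had an adjusted p-value of 0.998 from limma. Exact permutation tests over the pools gave 2-sided p-values of 0.8 to 1.0, where the smallest possible was 0.1. The 3 negative values set V1, the late vitrified pool, against fresh pools without F1, the late fresh pool. With the endogenous controls in place of U6 they were −0.13 for mmu-miR-15b, −0.39 for mmu-miR-497 and −0.55 for mmu-miR-15a. mmu-miR-16 and mmu-miR-195 were below 0 as well. Of all 335 assays tested, only 24.2% were above 0 with these controls, and the median was −0.78.

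Without V1 and F1, the log2 difference of each member was nearer to 0 than over all pools. In the pools numbered 2 and 3 alone, the log2 difference was −0.16 for mmu-miR-16 (95% interval −1.63 to 1.31) and −0.10 for mmu-miR-195 (−1.91 to 1.72). It was 0.061 for mmu-miR-15b (−1.40 to 1.52), 0.46 for mmu-miR-497 (−1.08 to 2.002) and 0.52 for mmu-miR-15a (−1.27 to 2.31). Their adjusted p-values from limma were 0.912 to 0.964. The difference was above 0 for 3 members and below 0 for 2, beside 49.4% and 50.6% of the assays tested, and 0 of 5 had an unadjusted p-value under 0.05, beside 4.91%. In these pools, too, the groups overlapped in −ΔCt for all 5 members, while 28.8% of the 326 assays tested did not overlap. The median over the members was 0.061, beside −0.023 over all assays tested. Without regard to sign, the median difference was 0.16 over the members, 0.52 over the card A assays tested and 0.58 over all assays tested. mmu-miR-15a and mmu-miR-497 were thus about as large as the median of card A. The intervals together reach from −1.91 to 2.31 on the log2 scale, so that the data bound a change and do not show its absence.

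When pools were paired by number in the model (replicate block), the log2 difference turned positive for the members that had lacked F1. It was 0.52 for mmu-miR-15a, 0.061 for mmu-miR-15b and 0.46 for mmu-miR-497, since V1 then has no partner, and it stayed at 0.74 for mmu-miR-16 and 0.27 for mmu-miR-195. All 5 members were above 0 with the block, as were 59.7% of the 330 assays fitted (40.3% were below 0, and 1.21% had an unadjusted p-value under 0.05). The adjusted p-value was 0.989 for each of the 5 from limma.

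**Figure D2:**
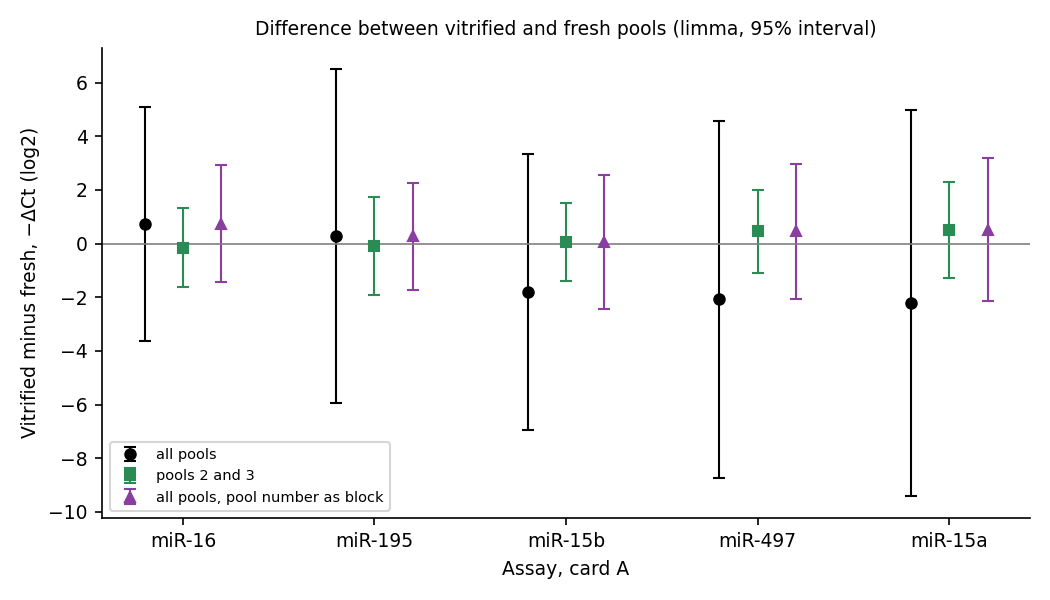
Log2 difference in −ΔCt between vitrified and fresh pools for each member, with the 95% interval from limma, over all pools (black circles), over the pools numbered 2 and 3 (green squares) and over all pools with the pool number as a block (purple triangles). Every interval includes 0, and those over all pools are the widest, reaching from −9.43 to 4.96 for mmu-miR-15a.

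The spread between pools differed among the members. Over the pools numbered 2 and 3, the SD of −ΔCt was 0.18 for mmu-miR-15b, 0.23 for mmu-miR-16, 0.41 for mmu-miR-497, 0.57 for mmu-miR-195 and 0.63 for mmu-miR-15a (n = 4 each, both groups together). The median over the 196 assays of card A determined in these 4 pools was 0.68. Only 4.08% of these assays had a smaller SD than mmu-miR-15b, and 6.12% a smaller SD than mmu-miR-16. All 5 members lay below the median. The assays were not matched by Ct, so the part of an early Ct in this spread was not tested.

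The order of the members by Ct was the same in every pool. From early to late it ran mmu-miR-16, mmu-miR-195, mmu-miR-15b, mmu-miR-497 and mmu-miR-15a, and in each of the 10 pairs the same member had the lower Ct in all pools that determined both. These are Ct values of different assays, whose efficiencies can differ, so the order is one of assays and not of molecules. The closest neighbours were mmu-miR-15b and mmu-miR-497, 0.43 ± 0.27 cycles apart (SD, n = 4) in the pools numbered 2 and 3. In V2 the gap was only 0.14 cycles. From mmu-miR-16 to mmu-miR-195 it was 2.07 ± 0.37 cycles, from mmu-miR-195 to mmu-miR-15b 2.31 ± 0.46 cycles, and from mmu-miR-497 to mmu-miR-15a 3.37 ± 0.86 cycles (SD, n = 4 each). Over all pools the 2-sided exact sign-change test gave p = 0.03125 for mmu-miR-16 against mmu-miR-195 in 6 pools and p = 0.0625 for each of the other 9 pairs in 5 pools. These are the smallest values that the pools allow, and all 10 became 0.0625 after Benjamini-Hochberg adjustment.

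**Figure D3:**
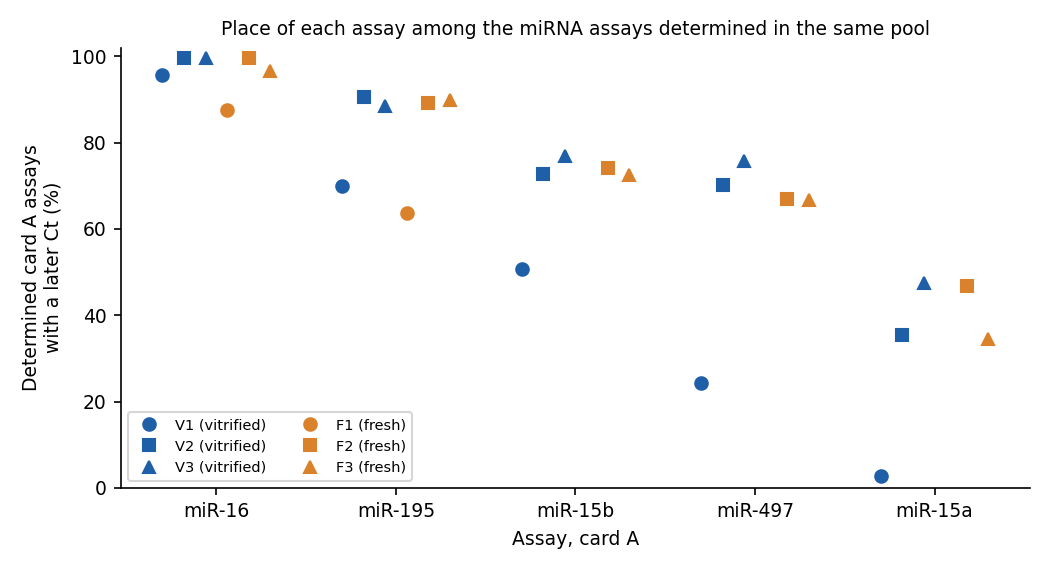
Share of the miRNA assays of card A determined in a pool that had a later Ct than the member (vertical axis, percent), with symbols as for the levels. mmu-miR-16 stayed between 87.5% and 99.6% in all 6 pools, while mmu-miR-15a was at 2.86% in V1.

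The difference in Ct between a pair of members of one card and pool needs no reference gene, and was used to ask whether vitrification moved the members apart. mmu-miR-15b and mmu-miR-16, which share the Smc4 locus, were 4.40 cycles apart in V2 and 4.14 (V3), against 4.51 (F2) and 4.47 (F3). V1 stood out at 7.08, and F1 gave no value. Without V1 both vitrified gaps were below both fresh gaps. mmu-miR-15a and mmu-miR-16, which share the Dleu2 locus, were 13.29 cycles apart in V1, 8.30 (V2) and 7.38 (V3), and 7.72 (F2) and 9.32 (F3). The groups overlapped here also without V1. mmu-miR-497 and mmu-miR-195 were 4.14 cycles apart in V1, 2.87 (V2) and 2.05 (V3), and 2.91 (F2) and 3.12 (F3). Here the fresh pools lay between the vitrified ones, and without V1 both vitrified gaps were again below both fresh gaps. This was also so for mmu-miR-497 with mmu-miR-16 and with mmu-miR-15b, and for none of the other 6 pairs, and the 4 pairs share members and pools. Among single assays, 28.8% of the 326 tested had groups that did not overlap, in either direction, in the pools numbered 2 and 3. The share over other pairs of assays was not computed, so no shift of the gaps is read from this count.

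Vitrified minus fresh, the gap between mmu-miR-15b and mmu-miR-16 differed by 0.72 cycles, that between mmu-miR-15a and mmu-miR-16 by 1.14 cycles and that between mmu-miR-497 and mmu-miR-195 by 0.0041 cycles. Without V1 and F1 these became −0.22, −0.68 and −0.56 cycles. Over all 10 pairs the 2-sided exact permutation p-values were 0.6 to 1.0, and each was 1.0 after Benjamini-Hochberg adjustment over the 10. The smallest possible p was 0.1, so that this test could not have passed 0.05. Paired by pool number, the exact sign-change p-values were 0.5 to 1.0, where the smallest possible was 0.5 or, for mmu-miR-16 with mmu-miR-195, 0.25.

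**Figure D4:**
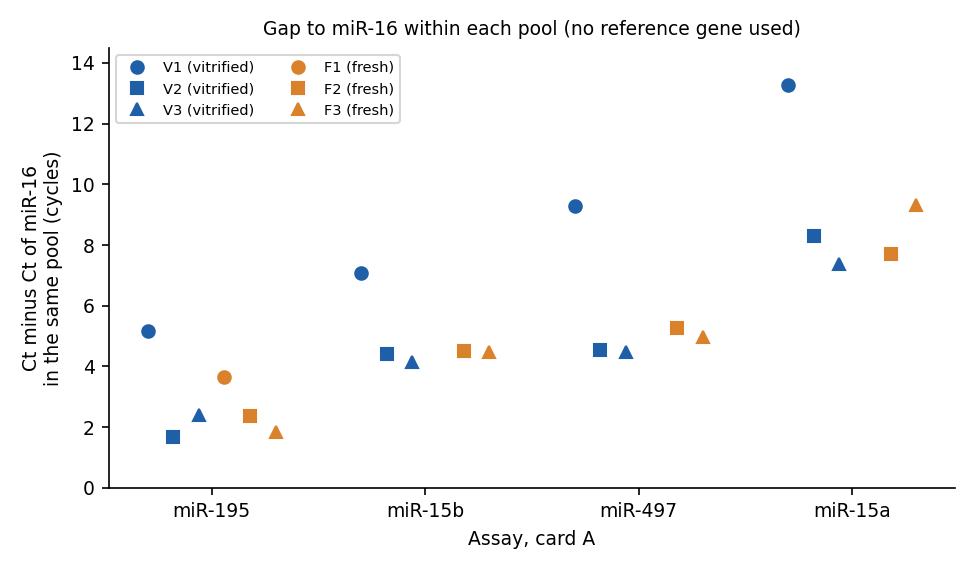
Ct of each other member minus the Ct of mmu-miR-16 in the same pool (cycles), in vitrified (blue) and fresh pools (orange). In the pools numbered 2 and 3 the gap of mmu-miR-15b stayed between 4.14 and 4.51 cycles, and the V1 circle is the highest point for each member.

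In V1 and F1 the members were not late by the same number of cycles. Against the mean of V2 and V3, the raw Ct in V1 was later by 3.59 cycles for mmu-miR-16, 6.40 for mmu-miR-15b, 6.71 for mmu-miR-195, 8.39 for mmu-miR-497 and 9.03 for mmu-miR-15a. The median over the 130 assays of card A with all 3 values was 5.65 cycles (quartiles 3.17 and 7.21). Among these assays, mmu-miR-16 was thus late by less than the median and the other 4 by more, and 91.5% had a smaller delay than mmu-miR-15a. They were 64.4% of the 202 assays with a Ct in V2 and V3. Assays undetermined in V1 have no delay and are not counted. In F1, mmu-miR-16 was late by 5.81 cycles and mmu-miR-195 by 7.35, with a median of 6.16 over 85 assays. These were 38.5% of the 221 assays with a Ct in F2 and F3. U6 moved by less than 1 cycle, so that these delays remain in ΔCt.

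The undetermined wells of F1 were read against assays of like Ct. For mmu-miR-15b, 24 of the 40 other card A assays with a mean Ct in F2 and F3 within 1 cycle of its own were determined in F1. This was so for 19 of 37 assays for mmu-miR-497, and for 1 of 30 for mmu-miR-15a. At the Ct of mmu-miR-16 it was so for 10 of 10 assays, and at that of mmu-miR-195 for 17 of 21. If the 3 wells would have crossed the threshold only after 40 cycles, the level in V1 exceeded that in F1 by at least 9.32 for mmu-miR-15b, 7.09 for mmu-miR-497 and 3.11 for mmu-miR-15a on the log2 scale. Between V1 and F1 the difference was 2.54 for mmu-miR-16 and 1.01 for mmu-miR-195. A well can also fail for other reasons, and a single pair of pools has no replicate.

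Other miRNAs on the cards carry AGCAGC from base 1 or base 2, the motif that ties the family to a wider group that also holds miR-107. It starts at these bases in 0.777% of the mature mouse sequences. Sequences of the 4 relatives measured are shown to place their seeds (bases 2 to 8, capitals) beside that of the family.
mmu-miR-322-5p: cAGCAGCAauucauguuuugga
mmu-miR-503-5p: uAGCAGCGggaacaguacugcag
mmu-miR-103-3p: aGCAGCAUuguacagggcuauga
mmu-miR-107-3p: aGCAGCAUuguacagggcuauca
mmu-miR-322-5p has the seed of the family, mmu-miR-503-5p differs from it in the last base, and in mmu-miR-103-3p and mmu-miR-107-3p the motif is shifted by 1 base. The motif was searched on the mature strand only.

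Of the 5 assays for these relatives, limma over all pools called 0, with or without adjustment of the p-values, and the median log2 difference was −1.23. It turned to 0.32 over the 3 assays that could be tested in the pools numbered 2 and 3, and to 0.54 over the 4 fitted with the pairing by number. The name mmu-miR-322 belongs to an assay on each card, and which arm each reads is not given. That of card A had a raw Ct of 35.73 (V1), 26.63 (V2) and 26.71 (V3), and of 26.60 (F2) and 25.27 (F3), with F1 undetermined. It was late or missing in V1 and F1 alone, as were the members that lacked F1. Its log2 difference, with F1 dropped, was −3.23 (standard error 2.87, adjusted p = 0.998 from limma), and it was −0.47 in the pools numbered 2 and 3. On card B the assay of that name had another pattern, with 32.99 (V1), 30.85 (V2), 31.68 (F2) and 27.66 (F3), V3 and F1 undetermined, and a log2 difference of −1.61 (standard error 1.97).

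mmu-miR-503, encoded beside mmu-miR-322 on the X chromosome, had a raw Ct of 32.70 (V1) and 33.18 (V3), and of 37.12 (F1), 30.95 (F2) and 29.53 (F3). V2 was undetermined. Unlike the members, it was no later in V1 than in V3. Its log2 difference, with V2 dropped, was 0.11 (standard error 2.40).

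mmu-miR-107, from an intron of a pantothenate kinase gene as mmu-miR-103 is, was the relative whose groups did not overlap. Its raw Ct was 32.09 (V2) and 32.14 (V3), against 35.85 (F2) and 33.18 (F3), with V1 and F1 undetermined. The log2 difference was 2.67 (standard error 1.52, adjusted p = 0.998 from limma, and 0.867 in the pools numbered 2 and 3), and the exact permutation p of 0.333 was the smallest that 2 pools against 2 allow. In the pools numbered 2 and 3, the only ones that determined it, 18.1% of the assays tested had groups that did not overlap with vitrified higher (10.1% over all pools). mmu-miR-103, which differs from it by few bases, had a log2 difference of −1.23 with F1 dropped (standard error 1.80) and of 0.32 in the pools numbered 2 and 3.

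The opposite arms of the same hairpins had 3 assays, all on card B. mmu-miR-15a# was determined at 38.44 (V1), 33.66 (V2) and 32.64 (V3), and at 32.25 (F2) and 31.69 (F3), with F1 undetermined. Every vitrified well was later than the determined fresh wells, F2 and F3. After subtraction of U6 of card B the groups still did not overlap, as in 5.07% of the assays with vitrified lower (10.7% in the pools numbered 2 and 3, where they did not overlap either). With F1 dropped as undetermined and the late V1 kept, the log2 difference was −2.69 (standard error 1.80, adjusted p = 0.998 from limma, exact permutation p = 0.3). It was −1.11 without V1 and F1. Its other arm, mmu-miR-15a, was at 0.52 in those pools. hsa-miR-15b# was undetermined in all 6 pools. mmu-miR-16# had a raw Ct only in V2 (34.36), V3 (33.05) and F3 (34.91), so that it entered no fit with undetermined wells left out.

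The miR-17 family, which promotes cell division, served as a comparison outside the motif. It was taken by the names miR-17, miR-20, miR-93 and miR-106 without #, which gave 9 assays, among them rno-miR-17-3p and rno-miR-20b-3p for the opposite arm. Of the 7 that entered the fit, 0 had an adjusted or unadjusted p-value under 0.05 in limma over all pools, and the median log2 difference was 0.55 (0.15 in the pools numbered 2 and 3). In the pools numbered 2 and 3 their log2 differences ran from −0.22 to 0.53, beside −0.16 to 0.52 for the 5 members. The raw Ct of mmu-miR-17 was 28.35 (V1), 21.79 (V2) and 22.01 (V3), and 29.70 (F1), 21.43 (F2) and 21.41 (F3). It was thus later than mmu-miR-16 in every pool.

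The assays outside these lists whose profile over the 6 pools was nearest to the mean profile of 2 members were mmu-miR-92a, mmu-miR-223 and mmu-miR-140. The measure was the root mean square difference in centred −ΔCt from the mean of mmu-miR-16 and mmu-miR-195, the members determined in all 6 pools. It was 0.30 for mmu-miR-92a, 0.38 for mmu-miR-223 and 0.43 for mmu-miR-140 on the log2 scale, with a median of 1.21 over 74 assays of card A. mmu-miR-16 and mmu-miR-195 were each 0.61 from their own mean, and 2 profiles always lie equally far from it. These 3 assays were picked as the nearest of the 74, so their smaller distances do not show that the 2 members are unlike. mmu-miR-92a had a raw Ct of 28.13 (V1), 22.09 (V2) and 22.61 (V3), and of 29.13 (F1), 21.96 (F2) and 22.07 (F3). The profiles share the late pools V1 and F1 and the subtraction of U6.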

How the data were processed

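MiRNAs were measured in 3 vitrified and 3 fresh pools. From each pool, 30 ng of RNA went into reverse transcription, and the cDNA was pre-amplified, diluted and run for 40 cycles, with Ct values read in RQ Manager. The authors deposited raw Ct values of 768 wells, without normalization, and a second table with their own fold change of vitrified over fresh, which was not used.

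A Ct of 40 or more and undetermined wells were left out, and the mean of 4 U6 wells per card and pool was subtracted (ΔCt). Assays with at least 2 determined wells per group were tested with limma 3.58.1 (lmFit and eBayes, R 4.3.3), with Benjamini-Hochberg adjustment over all of them. The step was tested on simulated data with independent noise, smaller than the spread of the members (median pooled SD 3.60). The late Ct that many assays share in V1 and F1 was not simulated, so that test does not cover it. Single values were compared with 2-sided exact permutation tests in Python 3.11.15 (numpy 2.4.6, pandas 2.3.3). Deviations from the group means correlated between pools of one number (0.80, 0.78 and 0.67 for numbers 1, 2 and 3, over 122 assays). Numbers come from the sample labels and were taken as pairs, and a fit with the number as a block stands beside the unpaired one. The deviations of the 3 pools in a group sum to 0, so those of numbers 2 and 3 also carry number 1.

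Within a group, 0 wells had the same Ct in 2 pools. Labels do not say how pools of one group were separated, so p-values measure the spread between these pools. The number of pools limits the precision. The members, lists and tests were chosen with earlier results of these data known. The genes named are the members, their opposite arms, relatives with AGCAGC from base 1 or 2, the miR-17 numbers, the 3 assays with the nearest profile, and the controls. Sequences and positions are from the RefSeq tables of GRCm38.p6. The deposited values name no genome build.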

Additional observations from a re-analysis of the deposited data

How the results depend on the processing

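The number of members with an adjusted p-value under 0.05 was 0 of those tested under all 18 alternatives of the fit, with adjusted p-values of 0.836 to 0.998. The size and the sign of the differences depended on how V1 and F1 were treated. The median log2 difference over the members, −1.81 as reported, lay between −2.76 and 1.72 when 1 pool at a time was dropped. Over the same fits the log2 difference ran from −3.76 to 0.52 for mmu-miR-15a, −2.76 to 0.061 for mmu-miR-15b, −1.10 to 1.75 for mmu-miR-16, −2.07 to 2.25 for mmu-miR-195 and −3.40 to 0.46 for mmu-miR-497. With V1 left out, the log2 difference was 0.52 for mmu-miR-15a, 0.061 for mmu-miR-15b and 0.46 for mmu-miR-497. It was 1.67 for mmu-miR-16 and 2.25 for mmu-miR-195, which kept their value in F1. The pools numbered 2 and 3 gave the same values for mmu-miR-15a, mmu-miR-15b and mmu-miR-497, with −0.16 for mmu-miR-16 and −0.10 for mmu-miR-195. Leaving out F1 gave −1.10 for mmu-miR-16 and −2.07 for mmu-miR-195, and leaving out V2 or V3 gave −0.98 or −0.45 for mmu-miR-195. Without F2 or F3, mmu-miR-15a, mmu-miR-15b and mmu-miR-497 had 1 fresh well and could not be tested. Only mmu-miR-16 and mmu-miR-195 were left when a Ct in all 6 pools was required.

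Filling undetermined wells turned the members that lacked F1. Set to 40 cycles, the log2 difference was 1.38 for mmu-miR-15a, 3.15 for mmu-miR-15b and 2.67 for mmu-miR-497. With a ceiling of 35 cycles it was 0.59, 1.48 and 1.003. With only a Ct under 35 counted, mmu-miR-15a was at 0.52. The replicate block gave 0.52 for mmu-miR-15a, 0.061 for mmu-miR-15b and 0.46 for mmu-miR-497, and with the global mean as the reference 0.85, 0.39 and 0.79, with −0.10 for mmu-miR-195. Another reference turned mmu-miR-195 to −1.59 and mmu-miR-16 to −1.13 (endogenous controls, which moved the median of all assays to −0.78), and mmu-miR-195 to −0.10 (global mean, median of all assays 0.12) or −0.15 (no reference, −0.35). With the endogenous controls the median over the members shrank to −0.55, with −0.55 for mmu-miR-15a, −0.13 for mmu-miR-15b and −0.39 for mmu-miR-497. The global mean gave a median of −0.39, with −0.81, −0.39 and −0.66 for these 3 and 0.37 for mmu-miR-16, and no reference gave −2.33, with 0.32 for mmu-miR-16.

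The gaps between members gave 0 of 10 pairs with an adjusted p under 0.05 under each alternative. With undetermined wells at 40 cycles, the gap differed by −0.64 (mmu-miR-15a and mmu-miR-16), −2.41 (mmu-miR-15b and mmu-miR-16) and −2.40 cycles (mmu-miR-497 and mmu-miR-195). With V1 left out, as in the pools numbered 2 and 3, it differed by −0.68, −0.22 and −0.56 cycles, and for the last pair by −0.098 without F2. With 1 pool at a time dropped, the 3 ranges were −0.68 to 2.27, −0.22 to 1.25 and −0.56 to 0.49 cycles. The same member of a pair had the lower Ct in every pool in 10 of 10 pairs, or 7 with undetermined wells at 40, where 3 members tie in F1.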
